A study of Mus musculus with 6 samples.

Results

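The genes described here are 9 transcription factors that act in the activation and effector differentiation of regulatory T cells (Treg cells): the bZIP factors Batf and Batf3, the interferon regulatory factors Irf4 and Irf8, the repressor Bach2, and Bhlhe40, Nfil3, Tox and Bcl6. They were chosen by symbol, and all 9 were found among the 24982 gene symbols of the count table and also in the FPKM table. All 9 passed the filter on low counts, as did 11772 genes in all. RNA was sequenced from natural Treg (nTreg) cells, sorted as CD4+CD25+CD127lo cells from spleens of mice aged 8 to 10 weeks (strain B6.129). One group of 3 libraries came from mice with the genotype Srsf1-flox/flox dLck.Cre (KO), in which a floxed Srsf1 gene meets a Cre recombinase driven in T cells by the distal Lck promoter, and the other 3 from mice labelled WT. Both groups received anti-CD3 (2 μg/ml), anti-CD28 (2 μg/ml) and recombinant interleukin-2 (10 ng/ml) for 72 h, so that no unstimulated cells are at hand and every value below belongs to activated cells.

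Antigen receptor signals induce Irf4 and Batf in T cells. The BATF protein pairs with a JUN protein and binds DNA beside IRF4 at composite elements, and in mouse Treg cells both are needed for the step from resting to effector cells. BACH2 competes for related DNA sites as a repressor and keeps T cells, Treg cells among them, in a resting state. BCL6 and the repressor made from Prdm1 restrain each other, and BCL6 marks follicular T cells.

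Depth and identity of the libraries limit what follows. Total counts ran from 10183626 to 20373649 in KO and from 23263741 to 27562046 in WT, so every KO library was shallower than every WT library. Srsf1, the targeted gene, stood at 438, 812 and 787 CPM (counts corrected for library size) in KO replicates 1, 2 and 3, against 1214, 1230 and 755 CPM in WT replicates 1, 2 and 3. The library labelled WT replicate 3 thus lay below KO replicates 2 and 3 for Srsf1. Counts over the whole gene include exons that a deletion may leave in place, and directions below follow the labels. KO replicate 1 stood apart, with correlations across genes of 0.900 to 0.927 with the other libraries. The samples' source field names effector CD4 T cells, whereas titles and the sort name nTreg cells. Foxp3, which defines Treg cells, was present in every library at 464, 357 and 413 CPM in KO and at 160, 121 and 104 CPM in WT. It was thus higher in every KO library (log2 fold change +1.68, SE 0.25, edgeR adjusted p = 0.197, DESeq2 adjusted p = 1.59e-06), as was Cd4 (+0.70, SE 0.23). Of 5 Treg markers, 3 were above 0 and 2 below. The CD8 chains Cd8a and Cd8b1 were lower in every KO library, summing to 38.9 to 60.5 CPM, against 193 to 269 CPM in WT. The part of such differences in the values below was not tested.

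None of the 9 factors passed the test for a difference between KO and WT (edgeR's quasi-likelihood test, Benjamini-Hochberg adjusted p under 0.05), and the same test called 2 of 11772 genes, or 0.017%. Those 2 were Cd8b1, which encodes a CD8 chain (edgeR adjusted p = 0.0166), and Dapl1 (edgeR adjusted p = 0.0295), both lower in KO. DESeq2 also called 0 of the 9, where it called 1.1% of genes. At an unadjusted p under 0.05, edgeR left 1 factor, Tox, which was higher in KO. Of all genes tested, 7.51% had such a p, with 4.75% higher and 2.76% lower in KO. In CPM, the groups did not overlap for 3 factors, against 15.7% of all genes tested. Tox and Bcl6 were higher in every KO library than in any WT library (7.48% of genes). Bhlhe40 was lower in every KO library (8.18% of genes), though its groups overlapped in FPKM. Fold changes were above 0 for 5 factors and below 0 for 4, where 51.6% of genes tested were above 0. In bulk RNA, fewer cells with a transcript and less transcript per cell cannot be told apart.

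**Figure D1:**
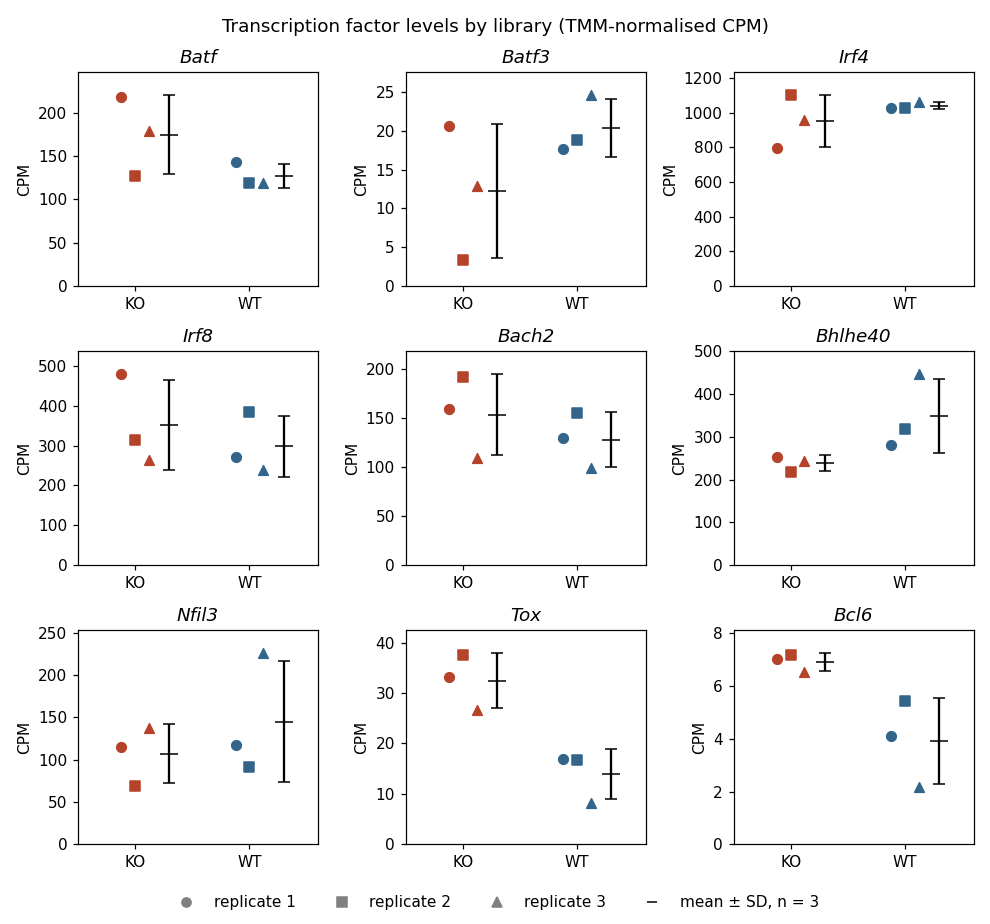
TMM-normalised CPM (vertical axis, from 0) of the 9 transcription factors in the 3 KO and 3 WT libraries, with one marker shape per replicate number and the mean ± SD beside the points. The groups are apart for Tox, Bcl6 and Bhlhe40 and overlap for the other 6.

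Per length of transcript, Irf4 and Batf were the most abundant of the 9. Irf4, which sets the strength of effector programs in T cells, reached 145, 174 and 148 FPKM (fragments scaled to transcript length and library depth) in KO and 156, 167 and 178 FPKM in WT. Batf, its DNA-binding partner, reached 253, 130 and 179 FPKM in KO and 140, 125 and 129 FPKM in WT. Both lay at or above the 97.8th percentile of the 24917 genes in the FPKM table, by group mean. Every WT library held more Irf4 than any WT library held Batf, whereas in KO these ranges overlapped and the mean of Batf (187 ± 62.4 FPKM) stood above that of Irf4 (155 ± 16.0 FPKM; SD, n = 3).

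Irf8, Bhlhe40 and Nfil3 formed a middle tier. Their means were 101, 61.9 and 45.1 FPKM in KO, against 81.5, 88.2 and 60.0 FPKM in WT. Batf3 and Bach2 followed at 17.7 and 13.9 FPKM in KO and 28.0 and 11.3 FPKM in WT. Tox averaged 9.09 ± 1.82 FPKM in KO and 3.78 ± 1.23 FPKM in WT, and Bcl6 was lowest at 1.52 ± 0.240 FPKM in KO and 0.832 ± 0.354 FPKM in WT. In WT the order ran Irf4, Batf, Bhlhe40, Irf8, Nfil3, Batf3, Bach2, Tox, Bcl6, and neighbouring ranges overlapped between Bhlhe40 and Irf8 and between Irf8 and Nfil3. In KO the order ran Batf, Irf4, Irf8, Bhlhe40, Nfil3, Batf3, Bach2, Tox, Bcl6, and the neighbours whose ranges did not overlap were Bhlhe40 and Nfil3, and Tox and Bcl6.

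**Figure D2:**
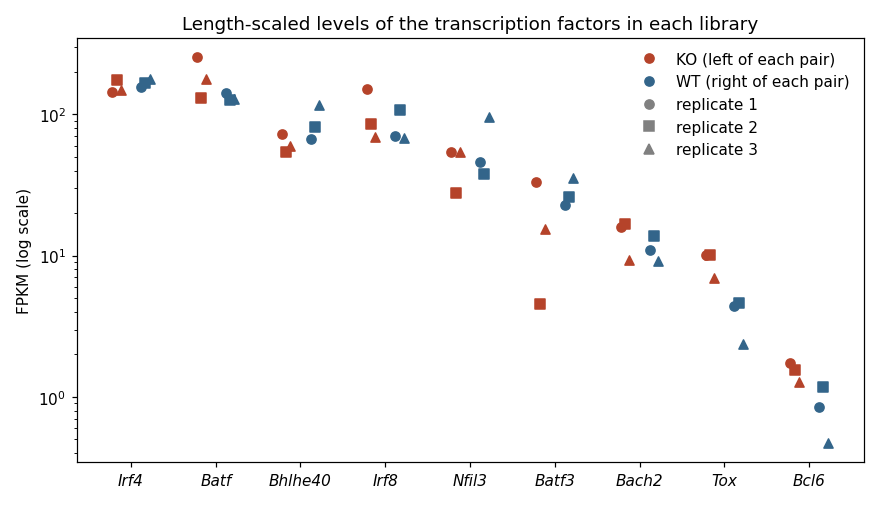
FPKM in each library on a log scale, with the factors ordered by their WT mean and KO points to the left of WT points. Levels span from 253 FPKM for Batf in KO replicate 1 to 0.471 FPKM for Bcl6 in the library labelled WT replicate 3.

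With all 6 libraries in the fit, Tox had the largest change among the 9. TOX is an HMG-box factor needed for CD4 T cell development in the thymus and sustained in chronically stimulated T cells. It stood at 33.2, 37.4 and 26.6 CPM in KO replicates 1, 2 and 3, against 16.9, 16.7 and 8.25 CPM in WT replicates 1, 2 and 3. The lowest KO library was thus above the highest WT library, and the library labelled WT replicate 3 was the lowest of all. The log2 fold change was +1.21 (SE 0.34, 95% interval 0.44 to 1.99), a 2.32-fold higher fitted level, with an edgeR adjusted p of 0.456 and a DESeq2 adjusted p of 0.0743. By unadjusted p it ranked 168th of 11772 genes. The log2 fold change was +1.20 with KO replicate 1 left out, +0.94 with the library labelled WT replicate 3 left out, and +0.81 with that WT library and KO replicate 2 both left out. Batf3 lay further from 0 than Tox when KO replicate 1 was left out, at -1.35, and, at -1.18, when the library labelled WT replicate 3 was left out as well, with Tox at +0.95. TOX is also abundant in developing and chronically stimulated CD8 T cells, and the CD8 chains Cd8a and Cd8b1 summed to 38.9 to 60.5 CPM in KO and 193 to 269 CPM in WT. Tox thus stood higher in the libraries with less CD8 transcript, and the part of CD8 transcripts in the Tox values was not tested.

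Bcl6, the repressor of follicular helper and follicular regulatory T cells, was at low levels in both groups. It had 153, 95 and 65 counts in KO, or 6.99, 7.17 and 6.52 CPM, against 91, 138 and 61 counts in WT, or 4.11, 5.41 and 2.19 CPM. The KO libraries lay close together, at 6.89 ± 0.337 CPM, while the WT libraries ranged more widely, at 3.90 ± 1.62 CPM (SD, n = 3 each). The log2 fold change was +0.82 (SE 0.40, 95% interval -0.084 to 1.73, edgeR adjusted p = 0.676). Without the library labelled WT replicate 3 it was +0.52.

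In CPM, Bhlhe40 was the factor whose groups stood apart with the KO libraries lower. BHLHE40 is a basic helix-loop-helix repressor that binds E-boxes, is induced by T cell receptor signals and supports cytokine production by T helper cells. It stood at 254, 218 and 244 CPM in KO, against 281, 318 and 447 CPM in WT. The gap between the groups was small, between KO replicate 1 and WT replicate 1, and the library labelled WT replicate 3 was far above the rest. In FPKM the groups overlapped, with KO replicate 1 at 72.6 FPKM and WT replicate 1 at 66.9 FPKM. The log2 fold change was -0.55 (SE 0.25, 95% interval -1.12 to 0.021, edgeR adjusted p = 0.663), and it was -0.34 without the library labelled WT replicate 3.

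**Figure D3:**
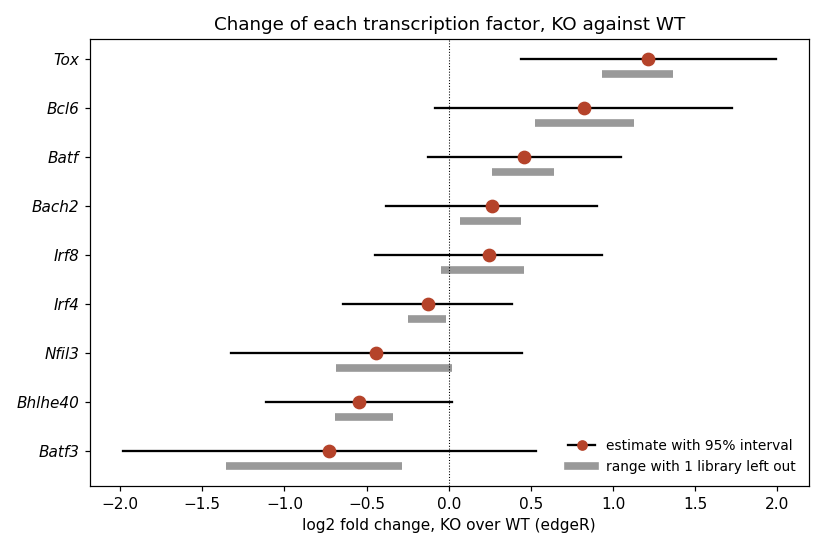
Log2 fold change of KO over WT (horizontal axis) for each factor, as the edgeR estimate with its 95% interval, over a grey bar that spans the estimates with 1 library left out. Tox stands at +1.21 with an interval above 0, intervals of the other 8 include 0, and the grey bars of Irf8 and Nfil3 cross 0.

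Batf and Irf4, the pair that acts on composite elements, did not differ beyond the spread between libraries. Batf stood at 219, 127 and 179 CPM in KO and at 143, 119 and 119 CPM in WT, so that KO replicate 2 lay within the WT range. Its log2 fold change was +0.46 (SE 0.26, 95% interval -0.13 to 1.05, edgeR adjusted p = 0.713). Irf4 stood at 797, 1100 and 954 CPM in KO and at 1026, 1027 and 1063 CPM in WT, and its log2 fold change was -0.13 (SE 0.23, 95% interval -0.64 to 0.39, edgeR adjusted p = 0.875). The WT libraries held almost equal amounts of Irf4, with an SD of 2.02% of the mean, against 16.0% in KO. Without KO replicate 1, the library that stood apart, the log2 fold changes were +0.26 for Batf and -0.017 for Irf4. Within KO the 2 genes ran in opposite order: KO replicate 1 was highest for Batf and lowest for Irf4, and KO replicate 2 was lowest for Batf and highest for Irf4.

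Bach2 and Irf8 overlapped between the groups too. Bach2 stood at 159, 191 and 109 CPM in KO and at 129, 155 and 99.1 CPM in WT (log2 fold change +0.26, SE 0.28, edgeR adjusted p = 0.806). With 1 library left out it ranged from +0.066 (KO replicate 2) to +0.44 (KO replicate 3), and it was +0.097 without the library labelled WT replicate 3. It became -0.11 when the library labelled WT replicate 3 was left out together with KO replicate 2. Irf8, known for its part in dendritic cell and B cell development and also induced in activated T cells, stood at 479, 314 and 263 CPM in KO and at 271, 383 and 239 CPM in WT (+0.24, SE 0.30, edgeR adjusted p = 0.828). The mean difference came with KO replicate 1, and without that library the log2 fold change was -0.046.

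Batf3 varied most within KO, with an SD of 70.7% of its mean CPM, and Nfil3 most within WT, with an SD of 49.1%. Batf3, which forms dimers with JUN as BATF does and is required for cross-presenting dendritic cells, had 20.6, 3.32 and 12.8 CPM in KO, against 17.6, 18.8 and 24.6 CPM in WT. KO replicate 2 held 44 counts of it, and KO replicate 1 lay inside the WT range. The log2 fold change of -0.73 (SE 0.55, edgeR adjusted p = 0.754) ranged from -1.35 without KO replicate 1 to -0.28 without KO replicate 2. Nfil3, a bZIP repressor of D-box elements that is needed for innate lymphoid cells, had 115, 68.8 and 137 CPM in KO, against 118, 91.5 and 226 CPM in WT. Its log2 fold change was -0.44 (SE 0.39, edgeR adjusted p = 0.773), and it was +0.020 without the library labelled WT replicate 3.

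Dendritic cells, B cells and macrophages also express several of these factors, and most of their defining markers were at or near 0. In KO replicate 1, Cd79b reached 4.57 CPM and Zbtb46 reached 3.84 CPM. Bcl6 itself ranged from 2.19 to 7.17 CPM. The 6 dendritic cell markers, Xcr1, Clec9a, Itgax, Flt3, Zbtb46 and Siglech, summed to 2.31 to 5.17 CPM in KO and 1.99 to 2.67 CPM in WT, and Clec9a had no counts in any library. The 4 B cell markers summed to 0.802 to 4.75 CPM in KO and 2.51 to 4.41 CPM in WT, most of it Cd79b, with at most 5 counts of Cd79a, Ms4a1 or Pax5 in any library. The 6 macrophage markers summed to 0.226 to 0.902 CPM in KO and 0.226 to 0.682 CPM in WT, and Csf1r and Lyz2 are listed at 0. The 3 plasma cell markers, Sdc1, Prdm1 and Xbp1, summed to 237 to 276 CPM in KO and 237 to 363 CPM in WT. Most of it was Xbp1, at 174, 170 and 198 CPM in KO and at 197, 217 and 287 CPM in WT. Prdm1 is also listed below among effector Treg genes. Sdc1 stood at 8.27, 4.98 and 3.11 CPM in KO and at 6.69, 7.84 and 6.71 CPM in WT. Irf8 had at least 239 CPM in every library. The part of these cell types in the values of the factors was not tested. NK cells need Nfil3 and Tox for their development, and the 4 NK cell markers, Ncr1, Klrb1c, Klra7 and Tyrobp, summed to 3.75 to 12.1 CPM in KO and 1.45 to 6.67 CPM in WT. Klrb1c, which encodes an NK cell receptor, was higher in every KO library, at 0.869, 1.89 and 1.91 CPM in KO and at 0.181, 0.196 and 0.789 CPM in WT (log2 fold change +1.94, SE 0.69, edgeR adjusted p = 0.618). The part of NK cell transcripts in the Nfil3 and Tox values was not tested.

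In 6 of the 9 factors, KO replicate 2 and, against it, the library labelled WT replicate 3 stood at opposite ends of the 6 libraries, a pattern noticed after the values were seen. KO replicate 2 was highest and that WT library lowest for 3 of them, Bach2, Tox and Bcl6. The reverse held for the other 3, Batf3, Bhlhe40 and Nfil3. The same 2 libraries held both ends for 939 of the 11772 genes tested, or 7.98%. The highest library exceeded the lowest 7.42-fold for Batf3, 4.54-fold for Tox, 3.28-fold for Nfil3 and Bcl6, 2.05-fold for Bhlhe40 and 1.93-fold for Bach2. The library labelled WT replicate 3 is also the WT library with the least Srsf1, and the part of its identity in these values was not tested. By Xist and Y-linked transcripts, KO replicate 2 and WT replicate 2 came from male mice and the other libraries from female mice, so these 2 libraries also differ in sex. The part of sex in the pattern was not tested.

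**Figure D4:**
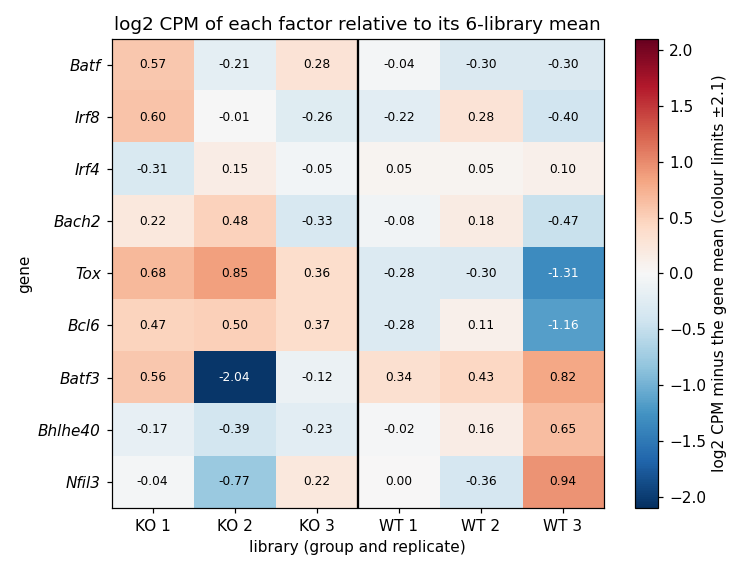
Log2 CPM of each factor (rows) in each library (columns, KO left of WT) relative to its mean over the 6 libraries. The library labelled WT replicate 3 and, opposite to it, KO replicate 2 hold the extremes in the 6 lower rows, in opposite directions for the upper and the lower 3 of these, and KO replicate 1 is highest for Batf and Irf8.

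Promoter windows of 7 of the 9 genes, from 250 bases before to 50 after each start, were read from RefSeq for build GRCm38.p6, and Irf8 and Bcl6 have 2 windows each. The windows of Batf3 and Bcl6 are shown because they hold the E-box CACGTG, the letters that BHLHE40 binds, and the STAT letters TTCNNNGAA. STAT5 acts downstream of the interleukin-2 given to these cells. Capitals mark matches on either strand, and the first base lies 250 bases before the start.
Batf3 (chr1:191098164-191098463, plus strand): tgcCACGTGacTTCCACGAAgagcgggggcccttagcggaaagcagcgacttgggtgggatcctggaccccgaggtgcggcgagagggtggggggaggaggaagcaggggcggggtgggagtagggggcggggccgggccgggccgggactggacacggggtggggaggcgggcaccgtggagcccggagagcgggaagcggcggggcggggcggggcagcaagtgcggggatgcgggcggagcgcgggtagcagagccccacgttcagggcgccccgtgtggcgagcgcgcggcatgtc
Bcl6, first window (chr16:23988803-23989102, minus strand): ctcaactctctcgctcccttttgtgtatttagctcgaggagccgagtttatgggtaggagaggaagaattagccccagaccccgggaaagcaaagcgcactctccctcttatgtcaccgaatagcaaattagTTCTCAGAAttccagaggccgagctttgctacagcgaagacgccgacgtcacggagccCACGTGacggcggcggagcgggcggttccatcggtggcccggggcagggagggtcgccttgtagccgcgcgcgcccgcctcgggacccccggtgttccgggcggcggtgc
Bcl6, second window (chr16:23981234-23981533, minus strand): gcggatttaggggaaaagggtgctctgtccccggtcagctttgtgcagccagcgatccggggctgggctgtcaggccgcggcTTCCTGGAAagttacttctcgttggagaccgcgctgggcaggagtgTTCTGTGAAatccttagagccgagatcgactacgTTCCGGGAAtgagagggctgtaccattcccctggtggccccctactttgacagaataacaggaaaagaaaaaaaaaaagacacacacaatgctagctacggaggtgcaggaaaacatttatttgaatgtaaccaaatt

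The E-box stood in 2 of the 9 windows, those of Batf3 and the first of Bcl6, and in 7.15% of all 32851 promoter windows. TTCNNNGAA, a palindrome in its fixed letters, stood in 5 of the 9 windows, which belong to Batf3, Bcl6, Bach2 and Irf8, and in 8.3% of all windows. The second Bcl6 window held 3 such matches, and the first of them, TTCCTGGAA, also fits the BCL6 letters TTCCTNGAA, which overlap the STAT letters and stood in 1.59% of all windows. The AP-1 letters TGANTCA, bound by BATF with JUN, stood in none of these windows and in 7.81% of all windows. The D-box letters TTANGTAA, bound by NFIL3, were not in these windows either and stood in 2.32% of all windows. These matches are letters in a short window and say nothing of binding. Batf3 and Bcl6, whose windows share the E-box, had log2 fold changes of -0.73 and +0.82.

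By the correlation of log2 CPM over the 6 libraries among 9110 other genes with at least 5 CPM on average, the genes most like Batf were Cand2 (Pearson r = 0.996), Brpf1 (0.996) and Ap3d1 (0.994). Each was highest in KO replicate 1, as Batf was. The genes most like Irf4 were Map3k2 (0.991), Lims1 (0.990) and Fam49a (0.989), each lowest in KO replicate 1 and highest in KO replicate 2. Tnfrsf21 (0.988), Lrp11 (0.986) and Tnfrsf10b (0.979) were most like Bach2, each highest in KO replicate 2 and lowest in the library labelled WT replicate 3. These correlations describe 6 libraries in which group and depth go together.

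Of 22 dimer partners and relatives of the BATF, IRF and BACH proteins, 19 were tested and edgeR called 0 in either direction, as did DESeq2. At an unadjusted p under 0.05, edgeR had 3 higher and 0 lower in KO. For this list and those below, the shares over all genes tested were 4.75% higher and 2.76% lower at that p. Fold changes were above 0 for 51.6% of genes, and DESeq2 called 0.799% of genes higher in KO. Of the 19, 16 were above 0, and their median was +0.47 on the log2 scale, against +0.019 over all genes tested. Without KO replicate 1 the median was +0.29 and 0 of these genes had an unadjusted p under 0.05. Jun, which encodes the AP-1 subunit that pairs with BATF, stood at 43.7, 25.4 and 22.8 CPM in KO and at 16.2, 17.9 and 21.3 CPM in WT (log2 fold change +0.73, SE 0.32). Irf7, a factor induced by interferon, stood at 4.43, 2.19 and 1.40 CPM in KO and at 0.678, 1.33 and 0.466 CPM in WT (+1.71, SE 0.60). Irf5 stood at +1.04 (SE 0.43), with KO replicate 1 at 50.0 CPM and no other library above 24.5 CPM. Batf2, Spi1 and Spib did not pass the filter on low counts.

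A list of 22 genes of effector T cells, Treg cells among them, was drawn up around BATF and IRF4. Whether each gene needs either factor was not tested. All 22 were tested between KO and WT, and edgeR called 0 in either direction. At an unadjusted p under 0.05, 6 were higher and 0 lower. Of all genes tested, 4.75% were higher and 2.76% lower at that p. This list, like the others here, was chosen with earlier results of these data known, so its counts are not independent of them. There were 17 of the 22 above 0, with a median of +0.41, where 51.6% of all genes were above 0. DESeq2 called 3 of them, each higher in KO: Il1rl1 (edgeR log2 fold change +1.58, SE 0.29), which encodes the interleukin-33 receptor, Il17a (+2.21, SE 0.41) and the lectin receptor gene Klrg1 (+2.44, SE 0.68). Klrg1 was at 8.00, 18.0 and 4.61 CPM in KO and at 1.54, 3.37 and 0.718 CPM in WT. Il2ra stood at -0.089, Il10 at +0.16 and the costimulatory receptor gene Icos at +0.29. Prdm1, whose product opposes BCL6, stood at 54.4, 80.1 and 75.0 CPM in KO and at 33.5, 41.2 and 69.3 CPM in WT (+0.54, SE 0.32, edgeR adjusted p = 0.718).

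Among 18 genes of resting or central Treg cells, edgeR called 0 higher and 1 lower, and 9 members were above 0 and 9 below, with a median of +0.014. At an unadjusted p under 0.05 there were 2 higher and 3 lower. Myb, Foxo1 and Id3 of this list are also listed below among other factors of effector Treg differentiation. The gene called was Dapl1, at 3.06, 3.70 and 3.91 CPM in KO and at 37.7, 42.0 and 24.4 CPM in WT (-3.29, SE 0.33, edgeR adjusted p = 0.0295). The call ended when any 1 library other than KO replicate 1 was left out: KO replicate 2 or 3, or a library labelled WT replicate 1, 2 or 3. It also ended with the replicate block, with sex as a covariate, with voom and with limma on unfiltered log2(FPKM + 1). Satb1, a chromatin organiser of T cells, stood at 453, 455 and 654 CPM in KO and at 1145, 913 and 1118 CPM in WT (-1.02, SE 0.25), and Klf2, which drives exit from lymphoid organs, at 16.4, 4.83 and 3.11 CPM in KO and at 1.31, 1.84 and 0.825 CPM in WT (+2.62, SE 0.67). Both were called by DESeq2 and by edgeR neither was. Tcf7 and Lef1, the factors most tied to the resting state, stood at -0.17 and +0.14.

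Of 20 genes listed as repressed by BACH2, 19 were tested, edgeR called 0 in either direction and 15 were above 0 (median +0.28). At an unadjusted p under 0.05 there were 4 higher and 2 lower, and DESeq2 called 2 higher, Il1rl1 and S100a6. Il1rl1 had the smallest p of this list too. S100a6, a calcium-binding protein gene, stood at 36.9, 20.8 and 27.1 CPM in KO and at 10.1, 12.7 and 12.6 CPM in WT (+1.26, SE 0.30), and the protease gene Gzmb at 1820, 2155 and 3477 CPM in KO and at 5233, 4222 and 7644 CPM in WT (-1.20, SE 0.34). Dapl1 and Gzmb were thus lower in the libraries that also held less of the CD8 chains, Cd8a (-1.92, SE 0.29) and Cd8b1 (-2.68, SE 0.23), and the part of CD8 transcripts in their values was not tested. Around BCL6, 17 of 18 follicular T cell genes were tested, edgeR and DESeq2 called 0 in either direction and 13 were above 0 (median +0.44, but +0.22 without WT replicate 1 and +0.17 without WT replicate 2). At an unadjusted p under 0.05, edgeR had 2 higher and 1 lower. Tox2, a relative of Tox, stood at 6.58, 6.34 and 11.4 CPM in KO and at 3.93, 2.16 and 3.52 CPM in WT (+1.34, SE 0.40), Pdcd1, which encodes PD-1, at +1.18 (SE 0.41), and Sh2d1a, which encodes the adaptor SAP, at -0.84 (SE 0.25). Cxcr5, the homing receptor of follicular cells, stood at +0.20.

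In the list of TOX relatives and genes tied to T cell exhaustion, 14 of 16 were tested, edgeR called 0 in either direction, with 5 higher and 0 lower at an unadjusted p under 0.05, and 10 were above 0 (median +0.38). That median was +0.15 without KO replicate 1 and +0.57 without the library labelled WT replicate 3. Havcr2, which encodes TIM-3, stood at 27.9, 50.0 and 45.8 CPM in KO and at 13.9, 18.7 and 14.5 CPM in WT (+1.39, SE 0.30), and it was the 1 gene of the list that DESeq2 called (adjusted p = 0.00617). Nfatc1, a calcium-dependent factor known to act upstream of Tox, stood at 239, 177 and 115 CPM in KO and at 96.2, 103 and 85.0 CPM in WT (+0.90, SE 0.29), while Tox4 stood at +0.043 and Lag3 at -0.12. All 20 clock genes around BHLHE40 and NFIL3 were tested, edgeR and DESeq2 called 0 in either direction (1 higher and 1 lower at an unadjusted edgeR p under 0.05), and 13 were above 0, with a median of +0.099, which was -0.028 without KO replicate 1 and ran up to +0.19 with 1 other library left out. Npas2 stood at +1.08 (SE 0.39), Per3 at -1.47 (SE 0.58) and the kinase gene Csnk1e at -0.51 (SE 0.26), while Clock and Per2 stood at -0.011 and +0.013. Among 26 other factors of effector Treg differentiation, edgeR and DESeq2 called 0 in either direction, edgeR had 5 higher and 0 lower at an unadjusted p under 0.05, and 20 were above 0 (median +0.52). That median was +0.14 without KO replicate 1, and +0.12 without that library and the library labelled WT replicate 3. The smallest p-values belonged to Myb (+0.80, SE 0.22), Nfatc1 and Ikzf2 (+0.91, SE 0.32), which encodes Helios, and larger fold changes to Relb, Id3 (+0.95, SE 0.81) and Rela (+0.95, SE 0.36), each highest in KO replicate 1. With the library labelled WT replicate 3 left out together with KO replicate 1, edgeR called 80 of 11549 genes tested. It called 0 of the 9 factors, and from 2 to 4 genes in each of 6 of these 8 lists. The lists share genes, among them Prdm1, Il1rl1, Tox2 and Nfatc1. A called gene can thus count in several lists, and the number of lists with calls is no measure of breadth.

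**Figure D5:**
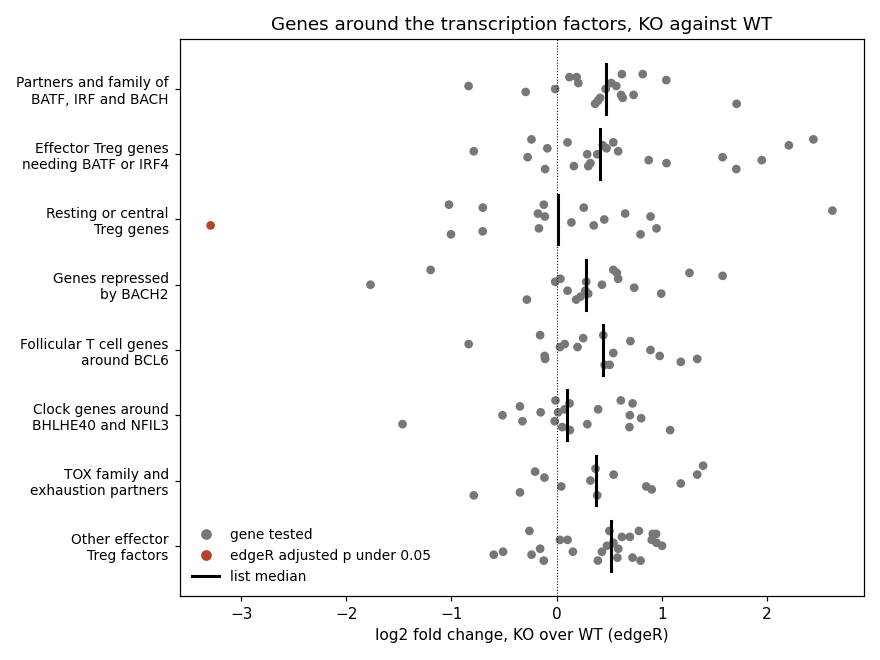
Log2 fold changes of KO over WT (horizontal axis) for the tested genes of the 8 lists around these factors, with a black bar at each list's median. With all libraries, list medians run from +0.014 to +0.52, the upper of which was +0.14 without KO replicate 1, and Dapl1 at -3.29 is the gene past the threshold.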

How the data were processed

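Per the design text of the series, the VIPER pipeline was used. Reads were aligned with STAR, per the file headers, to mm9 according to the submitters' processing notes. How reads were assigned to genes, and whether by strand, is not given in the sources used here. Whether reads of antisense transcripts that GENCODE places over Bach2, Bhlhe40 or Tox were counted with theirs is therefore not known. The table deposited by the authors holds raw counts as whole numbers, and a second holds FPKM values, scaled by the authors for length and depth. In the count table, 26 entries hold a date in place of a symbol (0.271% of counts) and stayed in library sizes.

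Groups came from sample titles, and the design text gives 3 mice per genotype. The test was edgeR's quasi-likelihood F test (version 4.0.16, R 4.3.3) after TMM scaling and filterByExpr (minimum count 10), adjusted by Benjamini-Hochberg over all 11772 genes, and SEs were taken from the F statistic. FPKM were used for levels between genes. No 2 replicates agreed within sampling noise (chi-square per degree of freedom of 22.0 or more). Alternatives used DESeq2 1.42.0, limma 3.58.1, other scalings and filters, a replicate block, sex of the animal (inferred from Xist and Y-linked counts), equal depth and libraries left out. The code was tested on simulated data. The factors and lists were chosen with earlier results of these data known. The text names the 9 factors, Srsf1, up to 3 further genes per list with the smallest p, and the 3 genes most correlated with Batf, Irf4 and Bach2 over libraries, leaving out predicted genes. Other list members were named after their values were seen. One marker gene is not reported here.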

Additional observations from a re-analysis of the deposited data

How the results depend on the processing

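Of the 9 factors, 0 were called under any of 20 other settings or under 1 added after seeing the data, which left out the library labelled WT replicate 3 together with KO replicate 2. The direction held for Batf, Batf3, Bhlhe40, Tox and Bcl6 in all of these. With 1 library left out, the log2 fold change of Irf8 ranged from -0.046 (KO replicate 1) to 0.46 (WT replicate 2) and that of Nfil3 from -0.69 (KO replicate 3) to 0.020 (the library labelled WT replicate 3). In 2 against 2 libraries, with the library labelled WT replicate 3 left out together with KO replicate 1, Irf8 turned to -0.16 and Irf4 to 0.022. Nfil3 turned to 0.25 in the added setting, where Bach2 turned to -0.11. The cause was not tested. The replicate block moved Tox to +1.27 (edgeR adjusted p = 0.434) and Bhlhe40 to -0.52. Deviations of same-numbered libraries correlated across genes with r = -0.36, 0.15 and 0.14 for replicates 1, 2 and 3. Libraries with the same number were also of the same inferred sex. Whether the numbers pair the mice was not tested, and the main fit took them as unpaired.

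Over all genes the count of 2 calls became 6 with no filter, 129 with DESeq2, 80 in the 2 against 2 libraries that lack KO replicate 1, 1 with voom, 1 with the replicate block, 0 with sex as a covariate (695 at an unadjusted p under 0.05), 0 with limma on log2(FPKM + 1) without a filter (1040 at an unadjusted p under 0.05) and 0 in the added setting (574 at an unadjusted p under 0.05). It ranged from 0 to 3 with 1 library left out. Adjusted p-values of Tox ranged from 0.0743 with DESeq2 to 0.999 without WT replicate 1. Bcl6 had 61 to 153 counts per library and Batf3 had 44 in KO replicate 2, and thinning to equal depth gave log2 fold changes of +0.94 and -0.79.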
